A study of Mus musculus with 24 samples.

Results

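The 10 genes described here belong to the bone morphogenetic protein (BMP) pathway or are among its usual transcriptional targets. They are the ligand Bmp4, the receptor Bmpr1a, the pseudoreceptor Bambi, the inhibitory Smad6, the inhibitors of DNA binding Id1, Id2, Id3 and Id4, and the homeobox genes Msx1 and Msx2. The genes were chosen by symbol, with earlier results of these data known. The J1 table listed 23095 genes and that of the tet-off lines 25476, and all 10 were in both. All 10 were also among the 21533 and 24007 genes tested.

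BMP ligands bind paired receptors at the cell surface, and the receptor-activated Smads then enter the nucleus with Smad4 and induce target genes. Id genes, Smad6 and Msx genes are among the targets reported most often, and Smad6 and Bambi act back on the pathway as inhibitors. In mouse embryonic stem cells, BMP signalling has been linked to self-renewal through Id genes.

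Poly(A) RNA was measured by RNA-seq in 24 libraries of mouse pluripotent cells, with 2 replicates per group. The cells were embryonic stem cells (ESCs), extended pluripotent stem cells (D-EPSCs) and expanded potential stem cells (L-EPSCs). D-EPSCs and L-EPSCs, together called EPSCs, differ in culture medium. The J1 table held 6 libraries of the wild-type J1 line, as ESCs, D-EPSCs and L-EPSCs. The tet-off table held 18 libraries of 3 lines in which the endogenous Pou5f1 (Oct4), Sox2 or Nanog was deleted and a transgene, which doxycycline (Dox) shuts off, supplied the factor.

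The tet-off lines were ZHBTc4, 2TS22C and NgcKO, called here the Oct4, Sox2 and Nanog line. Each was measured as ESCs, as untreated L-EPSCs and as L-EPSCs given Dox. ESCs of J1 grew in serum with LIF and the inhibitors of the 2i medium, on feeders or gelatin. D-EPSCs grew in N2B27 and serum replacement with LIF, CHIR99021, dimethindene maleate and minocycline. L-EPSCs grew in DMEM/F12 and serum replacement with LIF, CHIR99021, PD0325901, A-419259, XAV939, JNK inhibitor VIII and SB203580. The labels give no separate medium for tet-off ESCs and no time of RNA collection after Dox. All groups shared the poly(A) protocol and the count pipeline.

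The J1 comparisons ask how RNA levels differ between ESCs and each EPSC type. Conversion comparisons ask how untreated L-EPSCs of a tet-off line differ from its ESCs. Dox comparisons ask how L-EPSCs in which a factor was shut off differ from untreated L-EPSCs of the same line. No line without a tet-off transgene was given Dox, so effects of Dox itself and of losing the factor cannot be told apart. The conversion and Dox comparisons of a line share its untreated L-EPSCs, and the J1 comparisons share libraries in pairs, so their values are given side by side.

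Total counts ranged from 11612919 to 15069899 reads per library for J1 (median 13076077) and from 10807631 to 14798984 for the tet-off lines (median 12109406). Values are normalised read counts, given as replicate 1 and replicate 2, and log2 fold changes carry ± their standard error (SE) from limma. A gene was called when its log2 fold change was beyond 0.6 either way, or beyond 1 for Dox comparisons, and its adjusted p was under 0.05. Whether replicates were separate cultures is not stated, so p-values measure the spread between these libraries. The mean chi-square between replicates ran from 1.667 to 2.645 over the groups, where counting error alone would give 1. Intervals and floors given here cover counting error only. In bulk RNA, fewer cells of a type and less RNA per cell cannot be told apart.

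The targeted genes were checked first. Pou5f1 in the Oct4 line had normalised read counts of 6420.1 and 6316 in untreated L-EPSCs and 162 and 184 with Dox. Sox2 in the Sox2 line had 4966 and 4701 untreated and 47 and 53.1 with Dox. Nanog in the Nanog line had 9119 and 8847 untreated and 3166 and 3112 with Dox. Each targeted gene was therefore lower in both Dox libraries than in both untreated ones, but much of the Nanog RNA remained. The counts do not separate transgene RNA from RNA of any remaining endogenous exons. Other factors were lower as well. Sox2 counts in the Oct4 line were 5483 and 5479.6 untreated and 260.3 and 229.8 with Dox, and Pou5f1 counts in the Sox2 line were 8221 and 8489.9 untreated and 3291 and 3073 with Dox.

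Normalised read counts of other cell types were summed over marker lists. The 13 fibroblast markers, all listed in the J1 table, summed to 100051 and 102726 in J1 ESCs, 64101 and 64595 in D-EPSCs and 23089.5 and 23868 in L-EPSCs. Col1a1 was the largest part of the sum and none was at 0. The 6 macrophage markers summed to 2365 and 2377 in ESCs, 19213 and 19423 in D-EPSCs and 15241 and 15334 in L-EPSCs, with Lyz2 the largest part and none at 0. Both sums differed between the J1 groups without overlap. Single fibroblast markers went both ways in D-EPSCs against ESCs, with Col6a3 (1.04), Thy1 (0.66), Twist2 (1.23) and Dcn (1.35) called higher and Col1a1 (-1.19), Col1a2 (-0.69), Col5a2 (-1.03) and Postn (-0.68) lower. In L-EPSCs against ESCs 0 higher and 9 lower were called. The methods of the study state that EPSCs were kept without feeders for several passages before RNA-seq. Whether these cells contributed reads to the 10 genes was not tested.

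Of the 13 fibroblast markers, 12 were listed for the tet-off lines, and their sum ran from 260.1 to 675 over the 18 libraries. Thy1 was the largest part in ESCs and Pdgfrb in L-EPSCs, while Col3a1, Prrx1, Twist2, Postn and Lum were at 0 in many libraries. The 6 macrophage markers summed to between 186 and 759, most of it Cd68, with Adgre1, Lyz2 and Ptprc at 0 in most libraries. Single fibroblast markers were called both higher and lower in each tet-off comparison. The J1 and tet-off values were normalised separately, and no test was made across the tables.

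Levels of the 10 genes were compared with one another only per kb of exon length. The J1 ESC means per kb were 201 for Bmpr1a, 132 for Bmp4, 105 for Id3, 72.9 for Id1, 71.3 for Id2, 52.7 for Smad6, 44.8 for Id4, 38.6 for Msx2, 33 for Bambi and 4.23 for Msx1. Libraries of neighbours in this order overlapped only for Id1 with Id2 and Id4 with Msx2.

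The number of the 10 genes called was read against the background, the percent of all tested genes called the same way in the same comparison. That background includes genes with few reads, which are harder to call. Because the 10 genes were chosen with earlier results known, counts above the background describe these genes and test no set. J1 D-EPSCs against ESCs had 2 of the 10 genes higher (background 10.8%) and 2 lower (background 9.98%). J1 L-EPSCs against ESCs had 2 of the 10 genes higher (background 8.80%) and 2 lower (background 11.5%). These counts were close to the background and are not a result about the 10 genes as a group. Without J1 L-EPSC replicate 2 or without J1 ESC replicate 2, the second comparison had 2 genes called in place of 4. J1 L-EPSCs against D-EPSCs had 5 of the 10 genes higher (background 4.80%) and 1 lower (background 8.58%), and the higher count was above its background and the lower close to it. With the other fold change threshold of 1, this comparison had 2 genes called in place of 6.

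The Oct4 line conversion had 0 of the 10 genes higher (background 13.0%) and 6 lower (background 15.4%). The Sox2 line conversion had 0 of the 10 genes higher (background 7.99%) and 5 lower (background 11.6%). The Nanog line conversion had 2 of the 10 genes higher (background 12.2%) and 5 lower (background 14.7%). In limma, 2 genes of the Oct4 line and 2 of the Sox2 line were higher with an unadjusted p under 0.05, but none was called, and edgeR and DESeq2 also called 0 genes higher. The lower counts were above their backgrounds in each line, and the higher count of the Nanog line was close to it. With only the 2 groups compared in the fit, the Nanog line had 4 genes called in place of 7, and none was higher.

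Dox in the Oct4 line had 3 of the 10 genes higher (background 8.53%) and 3 lower (background 10.8%). Dox in the Sox2 line had 3 of the 10 genes higher (background 7.79%) and 4 lower (background 7.32%). Dox in the Nanog line had 0 of the 10 genes higher (background 2.80%) and 1 lower (background 2.59%). In limma, 1 gene of the Nanog line was higher with an unadjusted p under 0.05, and edgeR and DESeq2 also called 0 higher. The counts of the Oct4 and Sox2 lines were above their backgrounds by few genes. The Nanog count was close to the background. It was 3 with the other threshold of 0.6, 0 with only the 2 groups compared in the fit or a pseudocount of 10, 0 without Nanog Dox L-EPSC replicate 1 and 2 without Nanog L-EPSC replicate 1.

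**Figure D1:**
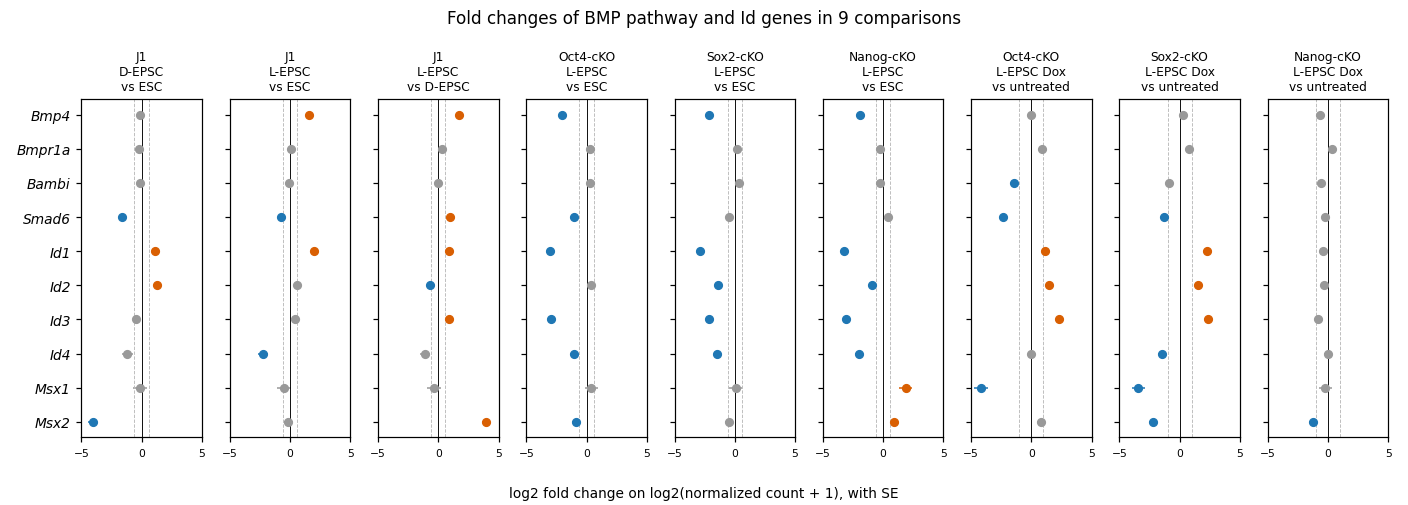
Log2 fold change of each of the 10 genes in the 9 comparisons of 2 groups, from limma on log2 normalised counts plus 1. Msx1 values in groups at or near 0 reads depend on the pseudocount, as do Msx2 values of J1 D-EPSCs, with 3 and 7 reads.

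Bmp4 encodes a BMP ligand (ENSMUSG00000021835, chr14:47003195-47010344 on the minus strand of NCBIM37). Bmp4 in J1 ESCs had normalised read counts of 297 and 289.6, with 283 and 249.6 in D-EPSCs and 912 and 887 in L-EPSCs. Both L-EPSC libraries were above all ESC and D-EPSC libraries, and ESCs and D-EPSCs were separate by a small margin. In the J1 fit the log2 fold change was -0.14 ± 0.08 in D-EPSCs against ESCs (adjusted p 0.209), 1.61 ± 0.08 in L-EPSCs against ESCs (adjusted p 2.86e-06) and 1.76 ± 0.08 in L-EPSCs against D-EPSCs (adjusted p 4.08e-06). Bmp4 was called in the comparisons with L-EPSCs under every alternative.

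Bmp4 in the Oct4 line had normalised read counts of 576 and 614 in ESCs, 129.6 and 154 in untreated L-EPSCs and 147 and 129 with Dox. Bmp4 in the Sox2 line had counts of 332 and 344 in ESCs, 77.8 and 75.8 in untreated L-EPSCs and 101.5 and 86.7 with Dox. Bmp4 in the Nanog line had counts of 499.8 and 426 in ESCs, 131 and 107 in untreated L-EPSCs and 69.4 and 78.7 with Dox. Bmp4 was highest in the Oct4 ESCs and lowest in the Nanog Dox L-EPSCs, which overlapped with the Sox2 L-EPSCs. Bmp4 libraries of different groups overlapped within a line only for untreated and Dox L-EPSCs of the Oct4 line. Bmp4 fell on conversion in all 3 lines under every alternative, with log2 fold changes of -2.07 ± 0.14 in the Oct4 line (adjusted p 1.84e-09), -2.12 ± 0.14 in the Sox2 line (adjusted p 2.93e-09) and -1.95 ± 0.14 in the Nanog line (adjusted p 4.08e-09). Dox gave -0.03 ± 0.14 in the Oct4 line (adjusted p 0.946), 0.28 ± 0.14 in the Sox2 line (adjusted p 0.114) and -0.67 ± 0.14 in the Nanog line (adjusted p 0.00138), none of them called. At the other threshold of 0.6 the Nanog value passed. Gm15217 and Gm15222 overlap Bmp4 on the opposite strand, and the strand setting of the read counting is not stated, so some reads could belong to them.

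Bmpr1a encodes a BMP receptor (ENSMUSG00000021796, chr14:35223920-35316527 on the minus strand of NCBIM37). Bmpr1a in J1 ESCs had normalised read counts of 1271 and 1278, with 1052 and 1143 in D-EPSCs and 1399 and 1279 in L-EPSCs. The L-EPSC libraries were above the ESC libraries by a small margin, and both were above the D-EPSC libraries. No J1 comparison was called, and the log2 fold change was -0.22 ± 0.06 in D-EPSCs against ESCs (adjusted p 0.0219), 0.07 ± 0.06 in L-EPSCs against ESCs (adjusted p 0.398) and 0.29 ± 0.06 in L-EPSCs against D-EPSCs (adjusted p 0.00799). Gm17110 overlaps Bmpr1a on the opposite strand, with the same uncertainty.

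Bmpr1a in the Oct4 line had normalised read counts of 1038 and 929 in ESCs, 1186 and 1184 in untreated L-EPSCs and 2169.6 and 2223 with Dox. Bmpr1a in the Sox2 line had counts of 882 and 897 in ESCs, 1025 and 981 in untreated L-EPSCs and 1702 and 1702 with Dox. Bmpr1a in the Nanog line had counts of 983 and 1048 in ESCs, 829.7 and 871 in untreated L-EPSCs and 1023 and 1088 with Dox. Bmpr1a was highest in the Oct4 Dox L-EPSCs and lowest in the Nanog L-EPSCs. Bmpr1a libraries of different groups overlapped within a line only for ESCs and Dox L-EPSCs of the Nanog line. Conversion gave 0.27 ± 0.05 in the Oct4 line (adjusted p 0.000558), 0.17 ± 0.05 in the Sox2 line (adjusted p 0.0187) and -0.26 ± 0.05 in the Nanog line (adjusted p 0.000929), with none called. Dox gave 0.89 ± 0.05 in the Oct4 line (adjusted p 6.58e-10), 0.76 ± 0.05 in the Sox2 line (adjusted p 6.62e-09) and 0.31 ± 0.05 in the Nanog line (adjusted p 0.000374). The Oct4 and Sox2 values stayed under the threshold of 1 and passed the other threshold of 0.6.

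Bambi encodes a pseudoreceptor without kinase activity that dampens BMP and TGF-beta signalling (ENSMUSG00000024232, chr18:3507955-3516402 on the plus strand of NCBIM37). Bambi in J1 ESCs had normalised read counts of 163 and 169.7, with 143 and 167 in D-EPSCs and 158 and 152 in L-EPSCs. The D-EPSC libraries overlapped with those of both other groups, and L-EPSCs were below ESCs. No J1 comparison was called, and the log2 fold change was -0.10 ± 0.12 in D-EPSCs against ESCs (adjusted p 0.573), -0.10 ± 0.12 in L-EPSCs against ESCs (adjusted p 0.576) and 0.00 ± 0.12 in L-EPSCs against D-EPSCs (adjusted p 1).

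Bambi in the Oct4 line had normalised read counts of 95.2 and 102 in ESCs, 114 and 128 in untreated L-EPSCs and 44.9 and 45.5 with Dox. Bambi in the Sox2 line had counts of 85.8 and 87.6 in ESCs, 118 and 109.7 in untreated L-EPSCs and 62.7 and 61.3 with Dox. Bambi in the Nanog line had counts of 136 and 154 in ESCs, 134 and 111 in untreated L-EPSCs and 99.3 and 66.3 with Dox. Bambi was highest in the Nanog ESCs and lowest in the Oct4 Dox L-EPSCs. No Bambi libraries of different groups overlapped within a line. Conversion gave 0.30 ± 0.18 in the Oct4 line (adjusted p 0.201), 0.39 ± 0.18 in the Sox2 line (adjusted p 0.109) and -0.24 ± 0.18 in the Nanog line (adjusted p 0.326), with none called. With Dox the values were -1.40 ± 0.18 in the Oct4 line (adjusted p 5.51e-06), -0.86 ± 0.18 in the Sox2 line (adjusted p 0.000854) and -0.58 ± 0.18 in the Nanog line (adjusted p 0.0241). Bambi was lower with Dox in each line, and the Oct4 value was called under every alternative. The Nanog value ran from -0.87 to -0.30 over all alternatives and was called under none. The Sox2 value passed the other threshold of 0.6. The Dox value of the Oct4 line minus that of the others was -0.54 ± 0.25 (Sox2, adjusted p 0.149) and -0.82 ± 0.25 (Nanog, adjusted p 0.0187), and neither was called.

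Smad6 encodes an inhibitory Smad (ENSMUSG00000036867, chr9:63800953-63869866 on the minus strand of NCBIM37). Smad6 in J1 ESCs had normalised read counts of 167 and 163, with 48 and 55.8 in D-EPSCs and 108 and 93.1 in L-EPSCs. The 3 J1 groups were separate, with ESCs highest and D-EPSCs lowest. All J1 comparisons were called, and the log2 fold change was -1.66 ± 0.16 in D-EPSCs against ESCs (adjusted p 0.000124), -0.71 ± 0.16 in L-EPSCs against ESCs (adjusted p 0.00964) and 0.94 ± 0.16 in L-EPSCs against D-EPSCs (adjusted p 0.00362). Smad6 in J1 L-EPSCs against ESCs was no longer called without J1 L-EPSC replicate 2 (-0.61, adjusted p 0.0648), J1 ESC replicate 1 (-0.70, adjusted p 0.0857) or J1 ESC replicate 2 (-0.73, adjusted p 0.0782), with adjusted p from 0.000688 to 0.0857 over all alternatives. The calls of L-EPSCs against ESCs and against D-EPSCs did not pass the other threshold of 1.

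Smad6 in the Oct4 line had normalised read counts of 230.04 and 211 in ESCs, 116 and 95.2 in untreated L-EPSCs and 20.7 and 20.0 with Dox. Smad6 in the Sox2 line had counts of 156 and 171 in ESCs, 111 and 129.7 in untreated L-EPSCs and 44.5 and 53.1 with Dox. Smad6 in the Nanog line had counts of 75.3 and 78.5 in ESCs, 109 and 91.8 in untreated L-EPSCs and 72 and 103 with Dox. Smad6 was highest in the Oct4 ESCs and lowest in the Oct4 Dox L-EPSCs. Smad6 libraries of different groups overlapped within a line only for untreated and Dox L-EPSCs of the Nanog line and ESCs and Dox L-EPSCs of the Nanog line. Conversion gave -1.06 ± 0.19 in the Oct4 line (adjusted p 0.000181), -0.44 ± 0.19 in the Sox2 line (adjusted p 0.0804) and 0.37 ± 0.19 in the Nanog line (adjusted p 0.13), and only the Oct4 line was called, under every alternative. Dox gave -2.31 ± 0.19 in the Oct4 line (adjusted p 2.55e-08), -1.29 ± 0.19 in the Sox2 line (adjusted p 2.96e-05) and -0.21 ± 0.19 in the Nanog line (adjusted p 0.515). Smad6 fell with Dox in the Oct4 and Sox2 lines under every alternative and was not called in the Nanog line.

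Id1 encodes an inhibitor of DNA binding that pairs with E proteins (ENSMUSG00000042745, chr2:152561987-152563146 on the plus strand of NCBIM37). Id1 in J1 ESCs had normalised read counts of 92.6 and 76.5, with 177 and 189 in D-EPSCs and 349 and 334 in L-EPSCs. The 3 J1 groups were separate, with L-EPSCs highest and ESCs lowest. All J1 comparisons were called, and the log2 fold change was 1.11 ± 0.13 in D-EPSCs against ESCs (adjusted p 0.000271), 2.01 ± 0.13 in L-EPSCs against ESCs (adjusted p 1.05e-05) and 0.90 ± 0.13 in L-EPSCs against D-EPSCs (adjusted p 0.00128). Id1 in J1 L-EPSCs against D-EPSCs was no longer called without J1 L-EPSC replicate 1 (0.87, adjusted p 0.0507) or J1 D-EPSC replicate 1 (0.85, adjusted p 0.055), with adjusted p from 4.63e-07 to 0.055 over all alternatives. The call between the EPSC types did not pass the other threshold of 1.

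Id1 in the Oct4 line had normalised read counts of 746 and 719 in ESCs, 88.7 and 93.4 in untreated L-EPSCs and 207 and 185 with Dox. Id1 in the Sox2 line had counts of 296 and 330.3 in ESCs, 33.5 and 49.9 in untreated L-EPSCs and 214 and 183 with Dox. Id1 in the Nanog line had counts of 559 and 602 in ESCs, 63.9 and 56.1 in untreated L-EPSCs and 48.3 and 43.8 with Dox. Id1 was highest in the Oct4 ESCs and lowest in the Sox2 L-EPSCs, which overlapped with the Nanog Dox L-EPSCs. No Id1 libraries of different groups overlapped within a line. Id1 fell on conversion in all 3 lines, with log2 fold changes of -2.99 ± 0.16 in the Oct4 line (adjusted p 1.04e-10), -2.90 ± 0.16 in the Sox2 line (adjusted p 3.60e-10) and -3.26 ± 0.16 in the Nanog line (adjusted p 4.33e-11). Dox gave 1.10 ± 0.16 in the Oct4 line (adjusted p 1.89e-05), 2.25 ± 0.16 in the Sox2 line (adjusted p 5.19e-09) and -0.37 ± 0.16 in the Nanog line (adjusted p 0.102). Id1 rose with Dox in the Oct4 and Sox2 lines and was not called in the Nanog line. The conversion and Dox calls held under every alternative. Both Dox groups of the Oct4 and Sox2 lines stayed below the ESCs of their line.

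Id2 encodes another inhibitor of DNA binding (ENSMUSG00000020644, chr12:25778666-25780957 on the minus strand of NCBIM37). Id2 in J1 ESCs had normalised read counts of 95.3 and 85.8, with 222 and 214 in D-EPSCs and 129.5 and 144 in L-EPSCs. The 3 J1 groups were separate, with D-EPSCs highest and ESCs lowest. In the J1 fit the log2 fold change was 1.26 ± 0.13 in D-EPSCs against ESCs (adjusted p 0.000145), 0.59 ± 0.13 in L-EPSCs against ESCs (adjusted p 0.00768) and -0.67 ± 0.13 in L-EPSCs against D-EPSCs (adjusted p 0.00555). Id2 in J1 L-EPSCs against ESCs was not called with all libraries but was called without J1 L-EPSC replicate 1 (0.66, adjusted p 0.0311) or J1 ESC replicate 1 (0.66, adjusted p 0.034), with adjusted p from 0.00181 to 0.0533 over all alternatives. Id2 in J1 L-EPSCs against D-EPSCs was no longer called without J1 L-EPSC replicate 1 (-0.60, adjusted p 0.051), J1 D-EPSC replicate 1 (-0.65, adjusted p 0.0681) or J1 D-EPSC replicate 2 (-0.70, adjusted p 0.0615), with adjusted p from 0.000455 to 0.0681 over all alternatives. The call between the EPSC types did not pass the other threshold of 1.

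Id2 in the Oct4 line had normalised read counts of 149.5 and 185 in ESCs, 201 and 231 in untreated L-EPSCs and 561 and 612 with Dox. Id2 in the Sox2 line had counts of 385 and 379 in ESCs, 158 and 139.7 in untreated L-EPSCs and 419 and 424 with Dox. Id2 in the Nanog line had counts of 154 and 198 in ESCs, 94.8 and 86.7 in untreated L-EPSCs and 82.6 and 63 with Dox. Id2 was highest in the Oct4 Dox L-EPSCs and lowest in the Nanog Dox L-EPSCs. No Id2 libraries of different groups overlapped within a line. Conversion gave 0.37 ± 0.15 in the Oct4 line (adjusted p 0.0504), -1.36 ± 0.15 in the Sox2 line (adjusted p 1.48e-06) and -0.94 ± 0.15 in the Nanog line (adjusted p 5.58e-05), and the Sox2 and Nanog lines were called. Id2 in the Nanog line conversion was not called with only the 2 groups compared in the fit. The Nanog value also did not pass the other threshold of 1. Dox gave 1.44 ± 0.15 in the Oct4 line (adjusted p 4.51e-07), 1.499 ± 0.15 in the Sox2 line (adjusted p 3.44e-07) and -0.33 ± 0.15 in the Nanog line (adjusted p 0.132). Id2 rose with Dox in the Oct4 and Sox2 lines under every alternative and was not called in the Nanog line.

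Id3 encodes an inhibitor of DNA binding of the same family (ENSMUSG00000007872, chr4:135699412-135701670 on the plus strand of NCBIM37). Id3 in J1 ESCs had normalised read counts of 186 and 189.98, with 138 and 125 in D-EPSCs and 260.1 and 242 in L-EPSCs. The 3 J1 groups were separate, with L-EPSCs highest and D-EPSCs lowest. Only the comparison of the EPSC types was called, and the log2 fold change was -0.51 ± 0.11 in D-EPSCs against ESCs (adjusted p 0.00675), 0.42 ± 0.11 in L-EPSCs against ESCs (adjusted p 0.0171) and 0.93 ± 0.11 in L-EPSCs against D-EPSCs (adjusted p 0.000486). That call did not pass the other threshold of 1.

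Id3 in the Oct4 line had normalised read counts of 269.8 and 235 in ESCs, 36.4 and 27.8 in untreated L-EPSCs and 174 and 147 with Dox. Id3 in the Sox2 line had counts of 66.6 and 82.4 in ESCs, 16.2 and 16 in untreated L-EPSCs and 75.1 and 102 with Dox. Id3 in the Nanog line had counts of 407 and 381 in ESCs, 39.4 and 53 in untreated L-EPSCs and 24.6 and 25.9 with Dox. Id3 was highest in the Nanog ESCs and lowest in the Sox2 L-EPSCs. Id3 libraries of different groups overlapped within a line only for ESCs and Dox L-EPSCs of the Sox2 line. Id3 fell on conversion in all 3 lines, with log2 fold changes of -2.94 ± 0.21 in the Oct4 line (adjusted p 5.39e-09), -2.14 ± 0.21 in the Sox2 line (adjusted p 5.02e-07) and -3.08 ± 0.21 in the Nanog line (adjusted p 3.46e-09). Dox gave 2.29 ± 0.21 in the Oct4 line (adjusted p 1.23e-07), 2.37 ± 0.21 in the Sox2 line (adjusted p 1.03e-07) and -0.83 ± 0.21 in the Nanog line (adjusted p 0.00751). Id3 rose with Dox in the Oct4 and Sox2 lines. These conversion and Dox calls held under every alternative. Id3 in Nanog Dox was not called with all libraries but was called without Nanog L-EPSC replicate 1 (-1.04, adjusted p 0.00741), with adjusted p from 0.00259 to 0.179 over all alternatives. The Nanog value passed the other threshold of 0.6.

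Id4 encodes the remaining member of the Id family (ENSMUSG00000021379, chr13:48356796-48359405 on the plus strand of NCBIM37). A330033J07Rik overlaps Id4 on the opposite strand, so some reads could belong to it. Id4 in J1 ESCs had normalised read counts of 66.5 and 82.1, with 20.4 and 49.9 in D-EPSCs and 13.4 and 16.1 in L-EPSCs. The 3 J1 groups were separate, with ESCs highest and L-EPSCs lowest, but the D-EPSC replicates differed widely. In the J1 fit the log2 fold change was -1.18 ± 0.42 in D-EPSCs against ESCs (adjusted p 0.0612), -2.26 ± 0.42 in L-EPSCs against ESCs (adjusted p 0.00361) and -1.08 ± 0.42 in L-EPSCs against D-EPSCs (adjusted p 0.0954).

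Id4 in J1 D-EPSCs against ESCs was not called with all libraries but was called without J1 D-EPSC replicate 2 (-1.81, adjusted p 0.0334), with adjusted p from 0.00381 to 0.362 over all alternatives. Id4 in J1 L-EPSCs against ESCs was no longer called without J1 L-EPSC replicate 1 (-2.13, adjusted p 0.101), J1 L-EPSC replicate 2 (-2.38, adjusted p 0.0826), J1 ESC replicate 1 (-2.41, adjusted p 0.0949) or J1 ESC replicate 2 (-2.11, adjusted p 0.121), with adjusted p from 2.25e-06 to 0.121 over all alternatives. Id4 in J1 L-EPSCs against D-EPSCs was not called with all libraries but was called without J1 D-EPSC replicate 1 (-1.70, adjusted p 0.0449), with adjusted p from 0.0142 to 0.397 over all alternatives. Id4 in J1 D-EPSCs against ESCs was also called with edgeR, with DESeq2, with a pseudocount of 10, with only genes with a mean of at least 10 and with a replicate block. Id4 in J1 L-EPSCs against D-EPSCs was also called with edgeR, with DESeq2 and with only genes with a mean of at least 10. The Id4 calls of J1 therefore changed with the libraries kept and with the test used. Each fit without a library left 1 replicate in a group, so fewer libraries estimated the spread. In those fits the log2 fold change of L-EPSCs against ESCs stayed between -2.41 and -2.11.

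Id4 in the Oct4 line had normalised read counts of 68 and 72.5 in ESCs, 31.1 and 35.9 in untreated L-EPSCs and 48.4 and 23.3 with Dox. Id4 in the Sox2 line had counts of 195 and 200.3 in ESCs, 75.6 and 66.8 in untreated L-EPSCs and 28 and 22.1 with Dox. Id4 in the Nanog line had counts of 69 and 78.5 in ESCs, 19.2 and 16.3 in untreated L-EPSCs and 21.1 and 14.6 with Dox. Id4 was highest in the Sox2 ESCs and lowest in the Nanog L-EPSCs, which overlapped with the Nanog Dox L-EPSCs. Id4 libraries of different groups overlapped within a line only for untreated and Dox L-EPSCs of the Oct4 and Nanog lines. Id4 fell on conversion in all 3 lines, with log2 fold changes of -1.05 ± 0.30 in the Oct4 line (adjusted p 0.00875), -1.46 ± 0.30 in the Sox2 line (adjusted p 0.000938) and -1.997 ± 0.30 in the Nanog line (adjusted p 3.52e-05). Id4 in the Oct4 line conversion was no longer called without Oct4 L-EPSC replicate 1 (-0.95, adjusted p 0.0642) or Oct4 ESC replicate 2 (-1.003, adjusted p 0.0545), with adjusted p from 0.000109 to 0.0642 over all alternatives. Dox gave 0.01 ± 0.30 in the Oct4 line (adjusted p 1), -1.48 ± 0.30 in the Sox2 line (adjusted p 0.000726) and -0.01 ± 0.30 in the Nanog line (adjusted p 1). Id4 fell with Dox in the Sox2 line, under every alternative, and was not called in the other lines.

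Msx1 encodes a homeobox transcription factor (ENSMUSG00000048450, chr5:38211724-38215822 on the minus strand of NCBIM37). Msx1 in J1 ESCs had normalised read counts of 8.99 and 7.38, with 6.13 and 8.81 in D-EPSCs and 3.08 and 9.19 in L-EPSCs. All J1 groups overlapped at these low counts. No J1 comparison was called, and the log2 fold change was -0.13 ± 0.57 in D-EPSCs against ESCs (adjusted p 0.9), -0.50 ± 0.57 in L-EPSCs against ESCs (adjusted p 0.541) and -0.37 ± 0.57 in L-EPSCs against D-EPSCs (adjusted p 0.674).

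Msx1 in the Oct4 line had normalised read counts of 13.6 and 11.6 in ESCs, 21.3 and 13.5 in untreated L-EPSCs and 0 and 0 with Dox. Msx1 in the Sox2 line had counts of 20.2 and 7.8 in ESCs, 14 and 13 in untreated L-EPSCs and 0.825 and 0 with Dox. Msx1 in the Nanog line had counts of 6.27 and 4.48 in ESCs, 32 and 15.3 in untreated L-EPSCs and 18.4 and 19.1 with Dox. Msx1 was highest in the Nanog L-EPSCs, which overlapped with the Nanog Dox L-EPSCs, the untreated Oct4 L-EPSCs and the Sox2 ESCs. It was lowest in the Oct4 Dox L-EPSCs, which overlapped with the Sox2 Dox L-EPSCs. Msx1 libraries of different groups overlapped within a line only for ESCs and untreated L-EPSCs of the Oct4 and Sox2 lines and untreated and Dox L-EPSCs of the Nanog line. Conversion gave 0.41 ± 0.55 in the Oct4 line (adjusted p 0.609), 0.09 ± 0.55 in the Sox2 line (adjusted p 1) and 1.88 ± 0.55 in the Nanog line (adjusted p 0.0104), and only the Nanog line was called. Msx1 in the Nanog line conversion was no longer called without Nanog L-EPSC replicate 1 (1.37, adjusted p 0.105) or Nanog ESC replicate 2 (1.67, adjusted p 0.0593), with adjusted p from 0.000728 to 0.121 over all alternatives. Msx1 in the Nanog line conversion was also not called with a pseudocount of 0.1 or with only the 2 groups compared in the fit.

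Msx1 with Dox had 0 reads in the Oct4 line against 39 in untreated L-EPSCs, which makes it at least 5.12-fold lower with a floor of 3 reads per library. The Sox2 line had 1 read with Dox against 26 untreated, a ratio of 0.0305 (95% interval 0.000743 to 0.185). Both falls were called under every alternative, with adjusted p of 8.00e-06 and 7.78e-05. The Nanog line had 38 reads with Dox against 45 untreated and was not called (log2 fold change -0.23 ± 0.55, adjusted p 0.899).

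Msx2 encodes a related homeobox transcription factor (ENSMUSG00000021469, chr13:53562250-53568443 on the minus strand of NCBIM37). Msx2 in J1 ESCs had normalised read counts of 85.4 and 104, with 3.06 and 6.85 in D-EPSCs and 92.5 and 80.4 in L-EPSCs. D-EPSCs were far below ESCs and L-EPSCs, which overlapped with each other. The comparisons with D-EPSCs were called under every alternative, and the log2 fold change was -4.08 ± 0.36 in D-EPSCs against ESCs (adjusted p 6.56e-05), -0.13 ± 0.36 in L-EPSCs against ESCs (adjusted p 0.823) and 3.95 ± 0.36 in L-EPSCs against D-EPSCs (adjusted p 0.000133).

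Msx2 in the Oct4 line had normalised read counts of 48.1 and 47.4 in ESCs, 31.1 and 20.7 in untreated L-EPSCs and 47.2 and 43.3 with Dox. Msx2 in the Sox2 line had counts of 88.8 and 85.8 in ESCs, 70.2 and 54.9 in untreated L-EPSCs and 16.5 and 9.81 with Dox. Msx2 in the Nanog line had counts of 23 and 29.1 in ESCs, 49 and 47.9 in untreated L-EPSCs and 15.8 and 25.9 with Dox. Msx2 was highest in the Sox2 ESCs and lowest in the Sox2 Dox L-EPSCs, which overlapped with the Nanog Dox L-EPSCs. Msx2 libraries of different groups overlapped within a line only for ESCs and Dox L-EPSCs of the Nanog line. Conversion gave -0.89 ± 0.31 in the Oct4 line (adjusted p 0.0302), -0.49 ± 0.31 in the Sox2 line (adjusted p 0.266) and 0.88 ± 0.31 in the Nanog line (adjusted p 0.0325). The call was lower in the Oct4 line and higher in the Nanog line. Msx2 in the Oct4 line conversion was no longer called without Oct4 L-EPSC replicate 2 (-0.60, adjusted p 0.216), Oct4 ESC replicate 1 (-0.88, adjusted p 0.096) or Oct4 ESC replicate 2 (-0.90, adjusted p 0.0877), with adjusted p from 0.00952 to 0.216 over all alternatives. Msx2 in the Nanog line conversion was no longer called without Nanog L-EPSC replicate 1 (0.86, adjusted p 0.104), Nanog L-EPSC replicate 2 (0.89, adjusted p 0.0913) or Nanog ESC replicate 1 (0.71, adjusted p 0.165), with adjusted p from 0.00673 to 0.165 over all alternatives. Msx2 in the Oct4 line conversion was also not called with only the 2 groups compared in the fit. Msx2 in the Nanog line conversion was also not called with only the 2 groups compared in the fit. The Oct4 and Nanog values did not pass the other threshold of 1.

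Msx2 with Dox had log2 fold changes of 0.81 ± 0.31 in the Oct4 line (adjusted p 0.0473), -2.20 ± 0.31 in the Sox2 line (adjusted p 2.36e-05) and -1.22 ± 0.31 in the Nanog line (adjusted p 0.00841). Msx2 fell in the Sox2 line under every alternative and in the Nanog line. Msx2 in Oct4 Dox was not called with all libraries but was called without Oct4 L-EPSC replicate 1 (1.09, adjusted p 0.0284), with adjusted p from 0.0198 to 0.289 over all alternatives. Msx2 in Nanog Dox was no longer called without Nanog Dox L-EPSC replicate 1 (-0.88, adjusted p 0.092), with adjusted p from 0.000534 to 0.174 over all alternatives. Msx2 in Nanog Dox was also not called with a pseudocount of 10 or with only the 2 groups compared in the fit. The Oct4 value passed the other threshold of 0.6.

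**Figure D2:**
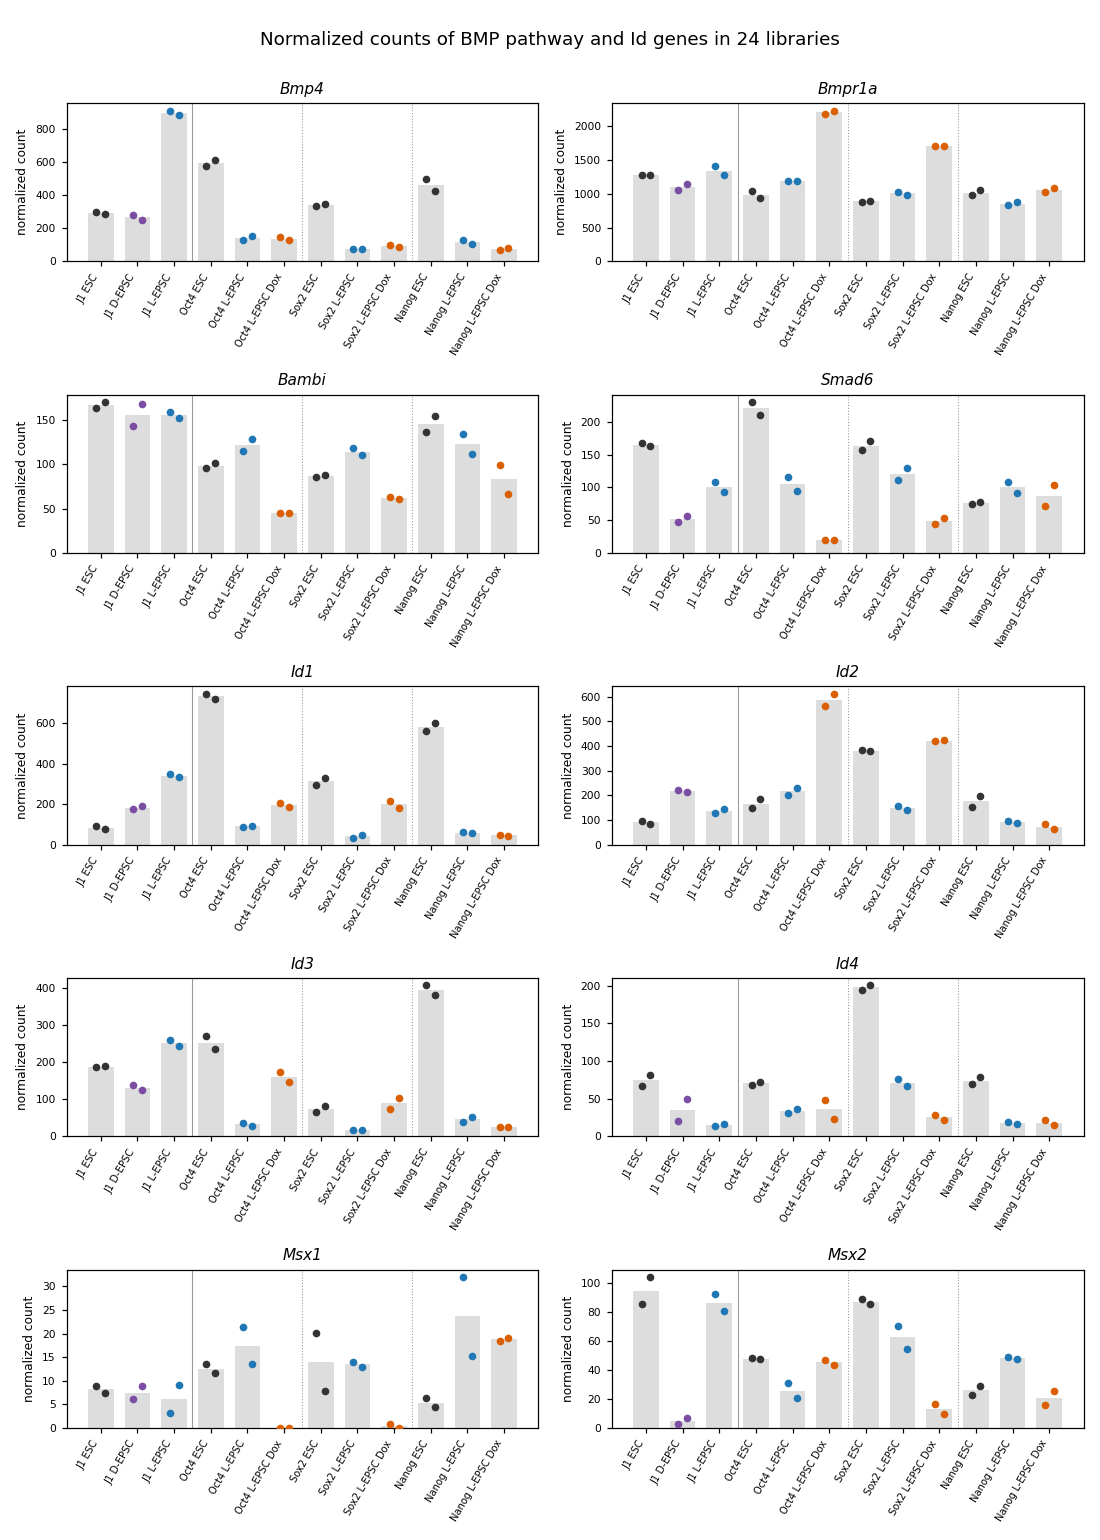
Normalised read counts (vertical axes) of the 10 genes in each of the 24 libraries by group, with group means. Id1 and Id3 are lower in untreated L-EPSCs than in ESCs of each tet-off line, and Msx1 is at or near 0 with Dox in the Oct4 and Sox2 lines.

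Whether effects differed between lines was tested as interactions in the tet-off fit. The Dox effect of a line minus that of another is called here the Dox effect difference, and likewise for conversion. Differences that share a line share its libraries. Those of Msx1 rest on groups at or near 0 reads, so their size depends on the pseudocount.

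Dox effects differed between the Oct4 and Sox2 lines for 4 of the 10 genes, against a background of 6.81% of all tested genes. The differences were -1.03 ± 0.27 for Smad6 (adjusted p 0.00834), -1.15 ± 0.22 for Id1 (adjusted p 0.000843), 1.49 ± 0.42 for Id4 (adjusted p 0.0158) and 3.01 ± 0.44 for Msx2 (adjusted p 7.34e-05). The count was 2 without Oct4 L-EPSC replicate 1 or Sox2 Dox L-EPSC replicate 2 and 1 without Sox2 L-EPSC replicate 1. Smad6 was no longer called without Oct4 L-EPSC replicate 1 (-0.89, adjusted p 0.0428), Sox2 Dox L-EPSC replicate 2 (-0.90, adjusted p 0.0406) or Sox2 L-EPSC replicate 1 (-0.92, adjusted p 0.04), with adjusted p from 0.00364 to 0.0428 over all alternatives. Smad6 was also not called with a pseudocount of 10. Id1 was no longer called without Sox2 L-EPSC replicate 1 (-0.87, adjusted p 0.00359), with adjusted p from 4.74e-05 to 0.0112 over all alternatives. Id4 was no longer called without Oct4 Dox L-EPSC replicate 1 (0.98, adjusted p 0.0572), Oct4 L-EPSC replicate 1 (1.39, adjusted p 0.0612), Sox2 Dox L-EPSC replicate 2 (1.32, adjusted p 0.0708) or Sox2 L-EPSC replicate 1 (1.40, adjusted p 0.0607), with adjusted p from 0.00035 to 0.0708 over all alternatives. The call of Msx2 held under every alternative.

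Dox effects differed between the Oct4 and Nanog lines for 6 of the 10 genes, against a background of 14.8% of all tested genes. The differences were -2.11 ± 0.27 for Smad6 (adjusted p 8.23e-06), 1.47 ± 0.22 for Id1 (adjusted p 5.43e-05), 1.76 ± 0.21 for Id2 (adjusted p 4.06e-06), 3.12 ± 0.30 for Id3 (adjusted p 3.63e-07), -3.94 ± 0.78 for Msx1 (adjusted p 0.000709) and 2.03 ± 0.44 for Msx2 (adjusted p 0.00172). These calls held under every alternative. Bambi was gained without Nanog Dox L-EPSC replicate 2 (-1.11, adjusted p 0.00122), with adjusted p from 0.00122 to 0.0748 over all alternatives. Bmp4 and Bambi passed the other threshold of 0.6.

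Dox effects differed between the Sox2 and Nanog lines for 6 of the 10 genes, against a background of 11.3% of all tested genes. The differences were -1.08 ± 0.27 for Smad6 (adjusted p 0.00498), 2.62 ± 0.22 for Id1 (adjusted p 1.16e-07), 1.82 ± 0.21 for Id2 (adjusted p 3.71e-06), 3.21 ± 0.30 for Id3 (adjusted p 3.68e-07), -1.47 ± 0.42 for Id4 (adjusted p 0.0144) and -3.20 ± 0.78 for Msx1 (adjusted p 0.00452). Smad6 was no longer called without Sox2 Dox L-EPSC replicate 1 (-0.95, adjusted p 0.0264), Sox2 L-EPSC replicate 2 (-0.97, adjusted p 0.0266), Nanog Dox L-EPSC replicate 2 (-0.82, adjusted p 0.0258) or Nanog L-EPSC replicate 2 (-0.96, adjusted p 0.0259), with adjusted p from 0.000406 to 0.0266 over all alternatives. Smad6 was also not called with a pseudocount of 10. Id4 was no longer called without Sox2 Dox L-EPSC replicate 2 (-1.30, adjusted p 0.064), Sox2 L-EPSC replicate 1 (-1.38, adjusted p 0.0555), Nanog Dox L-EPSC replicate 1 (-1.22, adjusted p 0.0672) or Nanog L-EPSC replicate 2 (-1.36, adjusted p 0.0521), with adjusted p from 0.00368 to 0.0672 over all alternatives. Msx1 was not called with a pseudocount of 10. The calls of Id1, Id2 and Id3 held under every alternative. Bmp4 was gained without Sox2 Dox L-EPSC replicate 2 (1.07, adjusted p 0.00229), Nanog Dox L-EPSC replicate 2 (1.05, adjusted p 0.00257) or Nanog L-EPSC replicate 2 (1.10, adjusted p 0.00102), with adjusted p from 0.000228 to 0.00964 over all alternatives. Msx2 was gained without Sox2 Dox L-EPSC replicate 1 (-1.33, adjusted p 0.0406) or Nanog Dox L-EPSC replicate 1 (-1.32, adjusted p 0.0424), with adjusted p from 0.0406 to 0.354 over all alternatives. Bmp4 passed the other threshold of 0.6.

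Conversion effects differed between the Oct4 and Sox2 lines for 1 of the 10 genes, against a background of 10.0% of all tested genes. The difference was 1.73 ± 0.21 for Id2 (adjusted p 1.42e-05). The count was 2 without Oct4 L-EPSC replicate 1. This call held under every alternative. Without that library the added gene was Id3. Id3 was not called with all libraries but was called without Oct4 L-EPSC replicate 1 (-0.995, adjusted p 0.046), with adjusted p from 0.0179 to 0.217 over all alternatives. Id3 was also called with a pseudocount of 10 and with only genes with a mean of at least 10. With edgeR the added gene was Smad6 (-0.62, adjusted p 0.0365), whose adjusted p ran from 0.0365 to 0.318 over all alternatives.

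Conversion effects differed between the Oct4 and Nanog lines for 3 of the 10 genes, against a background of 14.7% of all tested genes. The differences were -1.43 ± 0.27 for Smad6 (adjusted p 0.000639), 1.31 ± 0.21 for Id2 (adjusted p 0.000155) and -1.77 ± 0.44 for Msx2 (adjusted p 0.00689). These calls held under every alternative. Bmpr1a was gained without Oct4 ESC replicate 1 (0.61, adjusted p 7.95e-05), with adjusted p from 2.20e-08 to 0.0012 over all alternatives.

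Conversion effects differed between the Sox2 and Nanog lines for 3 of the 10 genes, against a background of 14.8% of all tested genes. The differences were -0.81 ± 0.27 for Smad6 (adjusted p 0.0327), 0.94 ± 0.30 for Id3 (adjusted p 0.0281) and -1.36 ± 0.44 for Msx2 (adjusted p 0.0325). The count was 1 without Sox2 L-EPSC replicate 2 or Nanog ESC replicate 2 and 0 without Sox2 ESC replicate 1, Nanog L-EPSC replicate 1 or Nanog ESC replicate 1. Smad6 was no longer called without Sox2 L-EPSC replicate 1 (-0.71, adjusted p 0.109), Sox2 ESC replicate 1 (-0.88, adjusted p 0.0543), Sox2 ESC replicate 2 (-0.75, adjusted p 0.0973), Nanog L-EPSC replicate 1 (-0.69, adjusted p 0.112), Nanog ESC replicate 1 (-0.79, adjusted p 0.0798) or Nanog ESC replicate 2 (-0.84, adjusted p 0.0606), with adjusted p from 0.00646 to 0.112 over all alternatives. Id3 was no longer called without Sox2 L-EPSC replicate 1 (0.93, adjusted p 0.0648), Sox2 L-EPSC replicate 2 (0.95, adjusted p 0.0596), Sox2 ESC replicate 1 (0.79, adjusted p 0.105), Nanog L-EPSC replicate 1 (0.73, adjusted p 0.112), Nanog ESC replicate 1 (0.90, adjusted p 0.082) or Nanog ESC replicate 2 (0.99, adjusted p 0.0558), with adjusted p from 0.00405 to 0.112 over all alternatives. Id3 was also not called with edgeR or with DESeq2. Msx2 was no longer called without Sox2 L-EPSC replicate 2 (-1.19, adjusted p 0.106), Sox2 ESC replicate 1 (-1.34, adjusted p 0.0811), Sox2 ESC replicate 2 (-1.39, adjusted p 0.0707), Nanog L-EPSC replicate 1 (-1.35, adjusted p 0.0741), Nanog L-EPSC replicate 2 (-1.38, adjusted p 0.0676) or Nanog ESC replicate 1 (-1.20, adjusted p 0.0997), with adjusted p from 0.00191 to 0.106 over all alternatives. Smad6 and Id3 did not pass the other threshold of 1. Id1 was gained without Sox2 L-EPSC replicate 1 (0.63, adjusted p 0.0227), with adjusted p from 0.0227 to 0.856 over all alternatives. Msx1 was gained without Sox2 ESC replicate 2 (-2.42, adjusted p 0.0336), with adjusted p from 0.0283 to 0.357 over all alternatives. Msx1 was also called with edgeR and with a pseudocount of 10.

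The other 54 genes of the pathway lists comprised ligands, receptors and coreceptors, Smads, secreted antagonists, intracellular inhibitors, reported targets and E proteins. Of these, 52 were tested for J1 and 53 for the tet-off lines.

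J1 D-EPSCs against ESCs had 3 higher (background 10.8%) and 10 lower (background 9.98%), L-EPSCs against ESCs had 8 higher (background 8.80%) and 11 lower (background 11.5%), and L-EPSCs against D-EPSCs had 5 higher (background 4.80%) and 5 lower (background 8.58%). The total of the first comparison was 5 without J1 D-EPSC replicate 1 or J1 ESC replicate 1 and 7 without J1 D-EPSC replicate 2. That of the next was 11 without J1 L-EPSC replicate 1, J1 L-EPSC replicate 2 or J1 ESC replicate 1 and 10 without J1 ESC replicate 2. That of the last was 6 without J1 L-EPSC replicate 2 and 4 without J1 D-EPSC replicate 1. With the other threshold of 1 the totals of the first and second were 8 and 11.

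On conversion the Oct4 line had 9 higher (background 13.0%) and 12 lower (background 15.4%), the Sox2 line 5 higher (background 7.99%) and 11 lower (background 11.6%) and the Nanog line 11 higher (background 12.2%) and 9 lower (background 14.7%). The Sox2 total of 16 was 9 without Sox2 L-EPSC replicate 2 and 10 without Sox2 ESC replicate 2. With the other threshold of 1 it was 8 and the Nanog total 10, and with only 2 groups in the fit the Sox2 total was 9. With Dox the Oct4 line had 9 higher (background 8.53%) and 11 lower (background 10.8%), the Sox2 line 9 higher (background 7.79%) and 7 lower (background 7.32%) and the Nanog line 1 higher (background 2.80%) and 1 lower (background 2.59%). The Nanog total of 2 was 4 without Nanog Dox L-EPSC replicate 2, 5 without Nanog L-EPSC replicate 1 and 1 without Nanog L-EPSC replicate 2. With the other threshold of 0.6 it was 9.

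The median log2 fold change of the 10 genes in the J1 comparisons, in the order D-EPSCs against ESCs, L-EPSCs against ESCs and L-EPSCs against D-EPSCs, was -0.18, -0.01 and 0.59. For the pathway lists it was 0.00, -0.08 and -0.01, and for all tested genes 0.01, 0 and 0. On conversion of the Oct4, Sox2 and Nanog lines, the medians of the 10 genes were -0.97, -0.92 and -0.60 and those of the pathway lists 0.14, -0.12 and 0.12. With Dox they were 0.41, -0.29 and -0.35 for the 10 genes and -0.33, 0.09 and -0.11 for the pathway lists. The median of all tested genes was 0 in each tet-off comparison. With genes that had a group at 0 set to their bound, the pathway medians were 0.00, -0.05 and 0.00 in J1, 0.14, 0.00 and 0.10 on conversion and -0.22, 0.00 and -0.11 with Dox, while the medians of the 10 genes kept the same values. The median of the 10 genes was thus lower than that of all genes on conversion of each line. No test of the lists was made.

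A few genes of these lists are given by name. They were chosen after their values had been seen. Only calls that held under every alternative run for the gene are given. There were 14 such alternatives, or 13 for Smad9 in J1. Bmp7, a ligand, had normalised read counts of 144 and 146 in Oct4 ESCs and 412 and 422 in L-EPSCs (log2 fold change 1.52, adjusted p 1.19e-09). Bmp7 in Nanog ESCs had 139 and 128 and in L-EPSCs 406 and 406 (1.60, adjusted p 6.78e-10). The inhibitory Smad7 had 2171 and 2204 in Oct4 ESCs and 1075 and 1083 in L-EPSCs (-1.02, adjusted p 3.36e-11). Smad7 in Nanog ESCs had 2034 and 2094 and in L-EPSCs 523 and 532 (-1.97, adjusted p 1.44e-14). The ligand Bmp8b had 60.6 and 50.4 in Nanog ESCs and 20.2 and 19.4 in L-EPSCs (-1.44, adjusted p 0.000221). Libraries of the groups compared did not overlap for any of these.

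With Dox in the Sox2 line, Bmp8b went from 42.1 and 33.9 to 299 and 258 (2.84, adjusted p 1.40e-07) and the receptor Bmpr2 from 224 and 230.5 to 563 and 569 (1.31, adjusted p 3.82e-07). Skil, a Smad corepressor, went from 1491 and 1545 to 307 and 291 with Dox in the Oct4 line (-2.34, adjusted p 1.80e-15). The reported target Dusp9 went from 3042 and 3055 to 7161 and 7019.8 in the Oct4 line (1.22, adjusted p 5.51e-13) and from 3610.3 and 3394 to 7725 and 7556 in the Sox2 line (1.13, adjusted p 2.80e-12). The antagonist Fst had 3 reads with Dox against 37 untreated in the Oct4 line, a ratio of 0.103 (95% interval 0.0203 to 0.324), adjusted p 0.00024. In the Sox2 line Fst had 1 read against 65, a ratio of 0.0122 (95% interval 0.000304 to 0.0703), adjusted p 8.39e-07. Groups did not overlap.

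In the J1 table Dusp9 had 204 and 258 in ESCs, 337 and 316 in D-EPSCs and 1517 and 1379 in L-EPSCs. L-EPSCs were higher than ESCs (2.65, adjusted p 1.33e-06) and than D-EPSCs (2.14, adjusted p 8.66e-06). Smad9 had 2 reads in D-EPSCs against 42 in ESCs, a ratio of 0.0523 (95% interval 0.00613 to 0.201), adjusted p 0.000844. L-EPSCs had 8.22 and 10.3 Smad9 counts, above D-EPSCs (2.35, adjusted p 0.00658). D-EPSCs had 1 Smad9 read per library, under the floor of 3 reads, so the size of this value depends on the pseudocount. Smad4, Smad5, Nog and Tcf3 were not called in any of the 9 comparisons of 2 groups.

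Marker sums of other states stand beside the conversion and Dox results. The 10 trophoblast markers, all listed, summed to 1840.3 and 1726 in ESCs, 4642 and 4526 untreated and 32484 and 32045 with Dox in the Oct4 line, 5823 and 5779.6 in ESCs, 1980.2 and 2005 untreated and 13109.8 and 13109.5 with Dox in the Sox2 line and 601 and 586 in ESCs, 625 and 593 untreated and 1036 and 993 with Dox in the Nanog line. Krt8 was the largest part in all but the untreated Nanog L-EPSCs, where Krt18 was, and only Elf5 was at 0, in 2 libraries. Gata3 and Hand1 are in both this list and that of reported BMP targets. The 6 pluripotency markers summed to 54123 and 53727 in ESCs, 28810.1 and 28809 untreated and 2682 and 2861 with Dox in the Oct4 line, 39994 and 39436 in ESCs, 31792 and 31181 untreated and 5931 and 5753 with Dox in the Sox2 line and 65039 and 65880.2 in ESCs, 37239 and 37074 untreated and 22609.5 and 21858 with Dox in the Nanog line, with none at 0. They include the targeted genes, and the largest part was Nanog, Pou5f1, Zfp42, Klf4 or Esrrb. The 8 primitive endoderm markers summed to 2429 and 2467 in ESCs, 2648 and 2502 untreated and 1573 and 1479 with Dox in the Oct4 line, 4109 and 4189 in ESCs, 2546 and 2500.1 untreated and 1239.9 and 1259 with Dox in the Sox2 line and 2523 and 2509 in ESCs, 963 and 938 untreated and 875 and 859.97 with Dox in the Nanog line. Lama1 was the largest part without Dox and in the Nanog line, and Dab2 with Dox in the other lines. Foxa2, Sox7 or Sox17 was at 0 in some libraries.

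Single primitive endoderm markers went both ways on conversion. In the Oct4 line Gata6 (4.09), Sox17 (2.10), Pdgfra (0.84), Dab2 (2.72) and Foxa2 (2.53) were called higher and Lama1 (-0.66) lower, with 2 higher and 5 lower in the Sox2 line and 3 higher and 2 lower in the Nanog line. Dox called 1 higher and 3 lower, 2 higher and 3 lower and 0 higher and 1 lower in the same order. Of the trophoblast markers, conversion called 6 higher and 0 lower, 0 higher and 5 lower and 4 higher and 2 lower.

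The trophoblast sum was thus higher with Dox in each line and highest in the Oct4 line. On conversion it was higher in the Oct4 line, lower in the Sox2 line and overlapping in the Nanog line, while the pluripotency sum was lower in each line. Whether cells of another type account for the levels of the 10 genes on conversion or with Dox was not tested.

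Trophoblast markers in the J1 table, all 10 listed, summed to 1519 and 1503 in ESCs, 196 and 187 in D-EPSCs and 789 and 817 in L-EPSCs. Tfap2a was the largest part in ESCs and D-EPSCs and Eomes in L-EPSCs, with Plac1, Elf5, Cdx2 or Hand1 at 0 in some libraries. In L-EPSCs against ESCs Eomes (1.73), Hand1 (2.19) and Krt18 (0.82) were called higher and Gata3 (-4.51), Krt8 (-2.43) and Tfap2a (-2.34) lower, and in D-EPSCs 0 higher and 5 lower. The 6 pluripotency markers summed to 49140.5 and 49542, 33872 and 33691 and 37950.3 and 37893 in the same order, with Pou5f1 the largest part and none at 0. The 8 primitive endoderm markers summed to 966 and 993, 1822 and 1858 and 1553 and 1649, with Lama1 or Pdgfra the largest part and Sox17, Sox7 or Foxa2 at 0 in some libraries. Against ESCs, 3 higher and 1 lower were called in D-EPSCs and 4 higher and 0 lower in L-EPSCs. A link to the 10 genes was not tested.

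Across the 9 tet-off group means, the Pearson correlation of log2 levels between Id1 and Id3 was 0.925, and other pairs of Id genes ran from 0.297 to 0.545. Among 9925 named genes with a mean normalised count of at least 100, those most like Id1 were Actn4 (0.971), Sfswap (0.963) and Hbp1 (0.957). Those most like Id3 were Fzr1 (0.971), Cactin (0.969) and Ap3d1 (0.95). The points share lines and treatments, so these values only describe, and with 9 points high values can arise by chance.

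The promoter reference held sequences named for 8 of the 10 genes, each 300 bases, and Id1 and Bambi were not analysed here. The motifs searched on both strands were GGCGCC, GTCTAGAC and GTCTG, which reads CAGAC on the other strand, all of them reported Smad-binding sequences. None of the motifs contains another. GGCGCC was in 3 of the 8 promoters (Id2, Id4 and Bmpr1a) and in 11.9% of 32851 promoters of the reference. GTCTAGAC was in 1 (Smad6) and in 0.213% of all, and GTCTG was in 1 (Id3, with 2 matches) and in 49.6% of all. A match is a description of sequence and not evidence of binding. The sequences of Id2 (GRCm38.p6 chr12:25096043-25096342, minus strand), Id3 (chr4:136143572-136143871, plus strand) and Smad6 (chr9:64022010-64022309, minus strand) are from RefSeq and are shown as an example of each motif, with the matches in capitals.
Id2: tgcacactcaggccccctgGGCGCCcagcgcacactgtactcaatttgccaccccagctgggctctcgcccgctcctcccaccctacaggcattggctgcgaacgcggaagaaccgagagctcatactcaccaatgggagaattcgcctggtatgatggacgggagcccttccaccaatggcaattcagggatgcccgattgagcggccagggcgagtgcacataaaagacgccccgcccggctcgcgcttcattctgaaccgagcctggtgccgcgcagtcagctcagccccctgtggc
Id3: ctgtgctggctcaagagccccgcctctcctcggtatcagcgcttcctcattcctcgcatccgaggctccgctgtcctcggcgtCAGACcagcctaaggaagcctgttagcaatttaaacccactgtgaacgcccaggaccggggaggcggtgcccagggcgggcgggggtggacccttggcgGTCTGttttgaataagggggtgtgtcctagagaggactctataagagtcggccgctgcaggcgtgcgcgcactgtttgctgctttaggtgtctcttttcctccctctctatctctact
Smad6: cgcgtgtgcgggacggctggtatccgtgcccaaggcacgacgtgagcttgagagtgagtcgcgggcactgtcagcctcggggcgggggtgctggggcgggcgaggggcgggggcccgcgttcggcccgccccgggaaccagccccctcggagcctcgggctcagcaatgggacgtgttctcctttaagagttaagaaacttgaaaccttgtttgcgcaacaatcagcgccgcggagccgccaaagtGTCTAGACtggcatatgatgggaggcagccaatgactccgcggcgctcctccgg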

How the data were processed

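The authors trimmed reads with Trim Galore 0.6.4, aligned them with STAR 2.7.9a to the mouse genome NCBIM37 and counted genes with HTSeq 0.11.2. The deposited unit is signal, meaning gene counts divided by DESeq2 size factors, with the J1 and tet-off tables normalised separately. Each column was a whole-number count times a constant step, so reads were recovered for 100% of the values within 0.1 read. In 2 columns, Sox2 ESC replicate 1 and untreated Sox2 L-EPSC replicate 2, the step was close to 1.

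Genes with at least 2 reads in a table were tested with limma 3.58.1 (trend) in R 4.3.3 on log2 normalised counts plus 1, with all groups of the table in 1 fit and Benjamini-Hochberg adjustment over all tested genes. Alternatives were edgeR 4.0.16 and DESeq2 1.42.0 on recovered reads, TMM scaling, median centring, pseudocounts of 0.1 and 10, a mean of at least 10, only the 2 groups compared in the fit, a replicate block, the other fold change threshold (1 for J1 and conversion, 0.6 for Dox) and each replicate left out. Tables and plots were made with Python 3.11.15, NumPy 2.4.6, pandas 2.3.3 and matplotlib 3.10.9. The code was tested on simulated data.

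The 10 genes, the pathway lists (ligands, receptors and coreceptors, Smads, secreted antagonists, intracellular inhibitors, reported targets and E proteins) and the marker lists (fibroblast, macrophage, trophoblast, pluripotency and primitive endoderm) were chosen with earlier results of these data known. A planned list of neural markers was not used here. Genes named from the pathway lists outside the 10 were picked after their values were seen. Apart from those named as never called, they had to be called under every alternative run for them. Smad9 in J1 had 13 alternatives in place of 14. Promoters came from a RefSeq-based set on GRCm38.p6.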

Additional observations from a re-analysis of the deposited data

Results flagged for a closer look

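A difference between groups was listed here when L-EPSCs lay above ESCs in J1 and below them in a tet-off line, or the reverse, with no overlap of libraries in either, or when the effect of Dox or of conversion was called as different between lines. Each of the 10 genes made a pair with each of the 3 tet-off lines. Such opposite directions occurred in 15 of these pairs, in 7 of the 10 genes. By the same rule, 38.8% of the 20812 genes tested in both tables and 26.1% of their pairs were opposite. Among 13257 genes with a mean of at least 10 in both, 9 of the 10 among them, the shares were 49.8% and 35.1%. Opposite directions were thus common among all genes. Their shares were higher among the 10 genes, which were chosen with earlier results known, and this was not tested. Log2 fold changes of the 7 genes follow. Id1 was 2.01 in J1 and -2.99 in the Oct4 line, -2.90 in the Sox2 line and -3.26 in the Nanog line. Id2 was 0.59 in J1 and -1.36 in the Sox2 line and -0.94 in the Nanog line. Id3 was 0.42 in J1 and -2.94 in the Oct4 line, -2.14 in the Sox2 line and -3.08 in the Nanog line. Bmp4 was 1.61 in J1 and -2.07 in the Oct4 line, -2.12 in the Sox2 line and -1.95 in the Nanog line. Smad6 was -0.71 in J1 and 0.37 in the Nanog line. Bambi was -0.10 in J1 and 0.30 in the Oct4 line and 0.39 in the Sox2 line. Bmpr1a was 0.07 in J1 and -0.26 in the Nanog line. Msx1 and Msx2 also had opposite signs in J1 and some lines, but their J1 libraries overlapped. The J1 and tet-off values were normalised separately and these opposite directions were not tested. The J1 and tet-off ESCs may also have differed in medium and feeder cells. Fibroblast markers summed to 100051 and 102726 in J1 ESCs and to between 260.1 and 675 in tet-off ESCs. Whether this bears on the opposite directions was not tested. The values of Bambi and Bmpr1a and those of Smad6 in the Nanog line, Id2 in J1 and Id3 in J1 were not called.

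For the Oct4 minus Sox2 Dox effect, 4 of the 10 genes were called (background 6.81%), and the differences were -1.03 for Smad6, -1.15 for Id1, 1.49 for Id4 and 3.01 for Msx2. Smad6 was no longer called without Oct4 L-EPSC replicate 1, Sox2 Dox L-EPSC replicate 2 or Sox2 L-EPSC replicate 1. Id1 was no longer called without Sox2 L-EPSC replicate 1. Id4 was no longer called without Oct4 Dox L-EPSC replicate 1, Oct4 L-EPSC replicate 1, Sox2 Dox L-EPSC replicate 2 or Sox2 L-EPSC replicate 1.

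For the Oct4 minus Nanog Dox effect, 6 of the 10 genes were called (background 14.8%), and the differences were -2.11 for Smad6, 1.47 for Id1, 1.76 for Id2, 3.12 for Id3, -3.94 for Msx1 and 2.03 for Msx2.

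For the Sox2 minus Nanog Dox effect, 6 of the 10 genes were called (background 11.3%), and the differences were -1.08 for Smad6, 2.62 for Id1, 1.82 for Id2, 3.21 for Id3, -1.47 for Id4 and -3.20 for Msx1. Smad6 was no longer called without Sox2 Dox L-EPSC replicate 1, Sox2 L-EPSC replicate 2, Nanog Dox L-EPSC replicate 2 or Nanog L-EPSC replicate 2. Id4 was no longer called without Sox2 Dox L-EPSC replicate 2, Sox2 L-EPSC replicate 1, Nanog Dox L-EPSC replicate 1 or Nanog L-EPSC replicate 2.

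For the Oct4 minus Sox2 conversion effect, 1 of the 10 genes was called (background 10.0%), and the difference was 1.73 for Id2.

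For the Oct4 minus Nanog conversion effect, 3 of the 10 genes were called (background 14.7%), and the differences were -1.43 for Smad6, 1.31 for Id2 and -1.77 for Msx2.

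For the Sox2 minus Nanog conversion effect, 3 of the 10 genes were called (background 14.8%), and the differences were -0.81 for Smad6, 0.94 for Id3 and -1.36 for Msx2. Smad6 was no longer called without Sox2 L-EPSC replicate 1, Sox2 ESC replicate 1, Sox2 ESC replicate 2, Nanog L-EPSC replicate 1, Nanog ESC replicate 1 or Nanog ESC replicate 2. Id3 was no longer called without Sox2 L-EPSC replicate 1, Sox2 L-EPSC replicate 2, Sox2 ESC replicate 1, Nanog L-EPSC replicate 1, Nanog ESC replicate 1 or Nanog ESC replicate 2. Msx2 was no longer called without Sox2 L-EPSC replicate 2, Sox2 ESC replicate 1, Sox2 ESC replicate 2, Nanog L-EPSC replicate 1, Nanog L-EPSC replicate 2 or Nanog ESC replicate 1.

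The Msx1 differences rest on groups at or near 0 reads and depend on the pseudocount. The cause of these differences between lines was not tested.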

How the results depend on the processing

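The 10 genes in the 9 comparisons of 2 groups made 90 pairs, of which 46 were called. Of all tested genes, 18.8% of the pairs were called, from 5.39 to 28.4% by comparison. Under every alternative 34 of the 46 stayed called and 12 were lost under at least 1. No called value changed sign. The calls lost and gained were 0 and 2 with edgeR, 0 and 2 with DESeq2, 0 and 0 with TMM scaling, 0 and 0 with median centring, 1 and 0 with a pseudocount of 0.1, 1 and 1 with a pseudocount of 10, 0 and 2 with only genes with a mean of at least 10, 0 and 1 with a replicate block, 8 and 6 with the other fold threshold, 5 and 0 with only the 2 groups compared in the fit and 9 and 5 with a single library left out. The causes of these changes were not tested.

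The other threshold moved the pathway count of J1 D-EPSCs against ESCs from 13 to 8, the pathway count of J1 L-EPSCs against ESCs from 19 to 11 and the count of the 10 genes in J1 L-EPSCs against D-EPSCs from 6 to 2. The other threshold moved the pathway count of the Sox2 line conversion from 16 to 8, the pathway count of the Nanog line conversion from 20 to 10 and the count of the 10 genes in Nanog Dox from 1 to 3. The other threshold moved the pathway count of Nanog Dox from 2 to 9 and the count for the Sox2 minus Nanog conversion effect from 3 to 1. DESeq2 moved Bambi in J1 L-EPSCs against D-EPSCs from 0.002527 to -0.001805, Msx1 in the Sox2 line conversion from 0.0859 to -0.0343 and Id4 in Nanog Dox from -0.00929 to 0.034. Median centring moved Bambi in J1 L-EPSCs against D-EPSCs from 0.002527 to -0.0177, Id4 in Oct4 Dox from 0.0098 to -0.0127 and Id4 in Nanog Dox from -0.00929 to 0.004999. Median centring moved Id4 in the Oct4 minus Nanog Dox effect from 0.0191 to -0.0177. Using only 2 groups in the fit moved the pathway count of the Sox2 line conversion from 16 to 9, the count of the 10 genes in the Nanog line conversion from 7 to 4 and the count of the 10 genes in Nanog Dox from 1 to 0. Using only 2 groups in the fit moved the pathway count of Nanog Dox from 2 to 1. edgeR moved Id4 in Nanog Dox from -0.00929 to 0.0371 and the count for the Oct4 minus Sox2 conversion effect from 1 to 2. A pseudocount of 10 moved the count of the 10 genes in Nanog Dox from 1 to 0, the pathway count of Nanog Dox from 2 to 1 and Id3 in the Oct4 minus Sox2 Dox effect from -0.0846 to 0.11. A pseudocount of 10 moved the count for the Oct4 minus Sox2 conversion effect from 1 to 2. Using only genes with a mean of at least 10 moved the count for the Oct4 minus Sox2 conversion effect from 1 to 2.

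Each library was left out in turn, which leaves a group with 1 replicate. Results that changed sign, and counts that moved the most, are given with all libraries and then as a range without 1 library. The pathway count of J1 D-EPSCs against ESCs was 13 and ran from 5 to 9. Bambi in J1 D-EPSCs against ESCs was -0.10 and ran from -0.22 to 0.0109. Msx1 in J1 D-EPSCs against ESCs was -0.13 and ran from -0.36 to 0.10. The pathway count of J1 L-EPSCs against ESCs was 19 and ran from 10 to 11. Msx1 in J1 L-EPSCs against ESCs was -0.50 and ran from -1.16 to 0.16. The count of the 10 genes in J1 L-EPSCs against ESCs was 4 and ran from 2 to 4. Msx2 in J1 L-EPSCs against ESCs was -0.13 and ran from -0.27 to 0.0151. Bambi in J1 L-EPSCs against D-EPSCs was 0.002527 and ran from -0.11 to 0.12. Msx1 in J1 L-EPSCs against D-EPSCs was -0.37 and ran from -1.03 to 0.29. The pathway count of J1 L-EPSCs against D-EPSCs was 10 and ran from 4 to 8. The pathway count of the Sox2 line conversion was 16 and ran from 9 to 14. Msx1 in the Sox2 line conversion was 0.0859 and ran from -0.55 to 0.72. Id4 in Oct4 Dox was 0.0098 and ran from -0.50 to 0.52. Bmp4 in Oct4 Dox was -0.0339 and ran from -0.16 to 0.088. The count of the 10 genes in Nanog Dox was 1 and ran from 0 to 2. Smad6 in Nanog Dox was -0.21 and ran from -0.47 to 0.0502. The pathway count of Nanog Dox was 2 and ran from 1 to 5. Id4 in Nanog Dox was -0.00929 and ran from -0.26 to 0.24. Msx1 in Nanog Dox was -0.23 and ran from -0.74 to 0.28. Id2 in the Oct4 minus Sox2 Dox effect was -0.0616 and ran from -0.16 to 0.0363. Id3 in the Oct4 minus Sox2 Dox effect was -0.0846 and ran from -0.30 to 0.14. The count for the Oct4 minus Sox2 Dox effect was 4 and ran from 1 to 4. The count for the Oct4 minus Sox2 conversion effect was 1 and ran from 1 to 2. Bmp4 in the Oct4 minus Sox2 conversion effect was 0.056 and ran from -0.066 to 0.18. Id1 in the Oct4 minus Sox2 conversion effect was -0.0898 and ran from -0.37 to 0.19. Msx1 in the Oct4 minus Sox2 conversion effect was 0.32 and ran from -0.31 to 0.95. Id4 in the Oct4 minus Nanog Dox effect was 0.0191 and ran from -0.49 to 0.53. Id3 in the Oct4 minus Nanog conversion effect was 0.13 and ran from -0.075 to 0.34. Bmp4 in the Oct4 minus Nanog conversion effect was -0.12 and ran from -0.26 to 0.0294. Bambi in the Sox2 minus Nanog Dox effect was -0.28 and ran from -0.57 to 0.00697. The count for the Sox2 minus Nanog conversion effect was 3 and ran from 0 to 2.

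Replicate numbers share only a label. Differences between replicates correlated between groups with r from -0.00757 to 0.0264 in the J1 table and -0.0625 to 0.0626 in the tet-off table, so no pairing was seen. With a replicate block, 5 of the 10 genes were called in J1 D-EPSCs against ESCs in place of 4, and no count of the 10 genes changed in another comparison.

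With 2 replicates per group and no statement that they were separate cultures, small differences can be missed and p-values cover these libraries only. The J1 and tet-off tables were not compared by test. RNA levels say nothing of protein, Smad phosphorylation or pathway activity. The tables do not separate feeder, differentiated and pluripotent cells. The time of RNA collection after Dox and the strand setting of counting are not stated. The 10 genes were chosen with earlier results known, so their counts against the background describe these genes and test no set.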
